A study of Caenorhabditis briggsae with 10 samples.

Results

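The comparison of HK104 with AF16 at 20 °C asks how far gene expression differs between a temperate and a tropical strain of Caenorhabditis briggsae before any cold is applied. Its members are the 4 untreated parental libraries, 2 of HK104 and 2 of AF16, out of 10 libraries in the series. They were chosen by the strain and treatment in their labels, and no measured value entered the choice. C. briggsae is a soil nematode and a close relative of C. elegans. It reproduces mainly as a self-fertile hermaphrodite, so a wild strain kept in culture is a nearly homozygous line. AF16, of tropical origin, is the laboratory strain from which the reference genome of the species was made, and HK104 is of temperate origin. Differences between such strains grown alike are called constitutive, and they arise either beside the gene itself (in cis) or through factors that act on it from elsewhere (in trans). All 4 libraries came from whole, genotypically wild-type worms that were synchronised at mid to late L4, the last larval stage, and grown for 24 hours at 20 °C before collection. A difference in developmental pace between the strains during those hours and a difference in expression at a given stage cannot be told apart here. Other libraries of the series are used below only where they test or describe these differences: 4 parental libraries from worms held at 4 °C for a further 60 hours, and 1 untreated library of the AF16/HK104 hybrid. The whole worm mixes all tissues, so fewer cells of a type and less RNA per cell cannot be told apart in any of the values.

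The AF16 libraries held 16340862 and 17248152 counts, and the HK104 libraries 17635870 and 17291712, over 23175 listed genes. After a filter on low counts, 13503 genes were tested, and these held 99.9% of the counts of each control library. Replicates lay close together and strains apart. On the scale of log2(CPM + 0.5), where CPM is the count scaled to library size, the AF16 replicates differed by a median of 0.18 and those of HK104 by 0.14, and the 4 pairings of an AF16 with an HK104 library gave 0.27 to 0.30. Differences of at least 2-fold were found at 335 genes between the AF16 replicates and 254 between the HK104 replicates, against 1549 to 1749 genes between libraries of different strains. The first principal component of the 4 libraries held 81.1% of the variance, with AF16 at -43.2 and -44.4 and HK104 at 45.5 and 42.1. Strain was thus the main axis of variation among untreated worms.

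No gene is given a name or function here, because the files list genes by WormBase ID and 0 of the 23175 IDs matched the 22727 entries of the available gene table. The differences are therefore described by number, direction, size and expression level, and by 4 individual genes.

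At a false discovery rate (FDR, the Benjamini-Hochberg adjusted p) below 0.05 in the quasi-likelihood test of edgeR, 947 of 13503 genes (7.01%) differed between the strains. Of these, 407 (3.01% of tested genes) were higher in HK104 and 540 (4.00%) were higher in AF16. Over all tested genes the log2 fold change had a median of 0.01, so higher and lower are read against a centre close to zero. The median size among the called genes was 2.93 on the log2 scale. Nearly all differences called were large: 908 of the 947 (6.72% of tested genes) had a fitted change of at least 2-fold, 388 with more RNA in HK104 and 520 with more in AF16. A stricter test, in which the change had to exceed 2-fold beyond its error (glmTreat), retained 499 genes (3.70%), 196 higher in HK104 and 303 higher in AF16. In all 947 genes both HK104 libraries lay on the same side of both AF16 libraries. That alone is a weak criterion, as it also held for 8229 of all tested genes (60.9%).

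**Figure D1:**
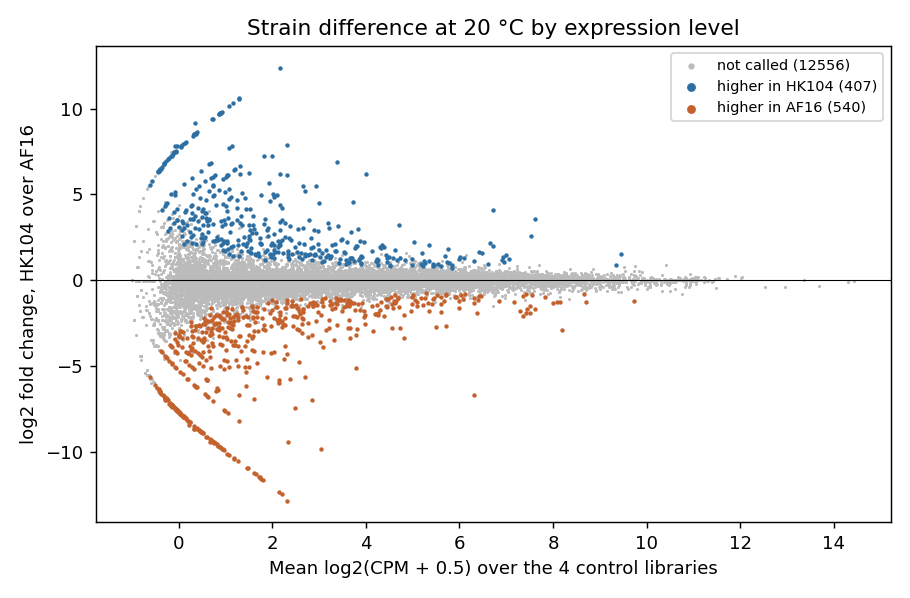
Each point is 1 of the 13503 tested genes, with its mean log2(CPM + 0.5) over the 4 control libraries on the horizontal axis and its fitted log2 fold change of HK104 over AF16 on the vertical axis. The 407 genes higher in HK104 (blue) and the 540 higher in AF16 (orange) lie mostly at low expression, and the curved edges at the left are genes with few or no counts in one strain.

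How many genes are called depends on which libraries enter the fit. The fit above used all 8 parental libraries, and those from cold worms varied more: the common biological coefficient of variation was 12.7% in a fit of the 4 control libraries, 21.6% over all 8, and 27.6% in a fit of the 4 cold libraries. With the control libraries alone, 2162 genes (16.0%) passed, 1036 higher in HK104 and 1126 higher in AF16, and these included 940 of the 947. The added calls were mostly small, with a median size of 0.66 on the log2 scale among those found only with the control libraries. The larger differences were less affected: 532 genes passed the 2-fold test with the control libraries against 499 with all 8. Called genes with a fitted change of at least 2-fold numbered 1230 with the control libraries against 908 with all 8. Leaving out a control library removed a replicate from 1 strain and lowered the count of 947 to between 448 and 498. The excess of genes higher in AF16 did not survive every such omission: without HK104 control replicate 2 there were 251 genes higher in HK104 and 246 higher in AF16.

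The 947 genes ranged from modest shifts to near-complete presence or absence. A total of 39 genes differed by less than 1 on the log2 scale, 254 by 1 to 2, 195 by 2 to 3, 118 by 3 to 4 and 341 by 4 or more. The smallest difference called was 0.73. In the first 4 classes, 19 against 20, 117 against 137, 82 against 113 and 58 against 60 genes were higher in HK104 and in AF16, or 50.8% to 57.9% higher in AF16. Among differences of 4 or more, 131 genes were higher in HK104 and 210 (61.6%) in AF16. Of those with more than 3 counts in at least 1 control library of each strain, 36 were higher in HK104 and 31 in AF16.

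**Figure D2:**
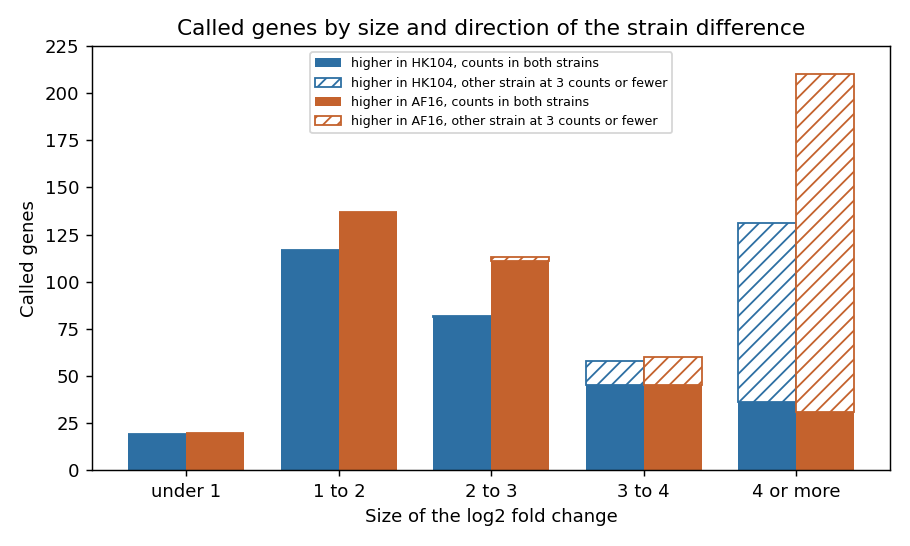
Bars give the number of called genes, from 0, in 5 classes of the size of the log2 fold change, for genes higher in HK104 (blue) and higher in AF16 (orange). Hatched parts are genes with 3 counts or fewer in both control libraries of the lower strain, which make up 274 of the 341 genes with a log2 fold change of 4 or more.

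Most of the largest differences were genes read in one strain and hardly at all in the other. At 305 of the 947 genes one strain had at most 3 counts in each of its control libraries, a level treated here as the floor. HK104 was at the floor in 196 of them (64.3%) and AF16 in 109. Among all tested genes with 1 strain at the floor the share was similar, with 347 at the floor in HK104 (65.2%) and 185 in AF16. Both libraries had exactly 0 counts at 116 of the 196 HK104 genes and at 51 of the 109 AF16 genes. The levels in the other strain were mostly low, with a median of 1.94 CPM in AF16 where HK104 was at the floor and 2.16 CPM in HK104 where AF16 was. Only 18 of the 196 genes and 7 of the 109 reached 10 CPM in the strain that expressed them, and the highest level was 112 CPM, in AF16. For such genes a fold change is a lower bound, computed against 3 counts per library. The bounds had a median of 11.1-fold and reached 639-fold for genes at the floor in HK104. For genes at the floor in AF16 the median was 11.8-fold and the highest value 221-fold. With these genes set to their bounds, the median size of the 947 differences was 2.56 in place of 2.93.

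The remaining 642 genes had counts in both strains, and here the directions were closer, with 298 genes higher in HK104 and 344 (53.6%) higher in AF16. The median size was 2.10 on the log2 scale.

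The genes with a strain at the floor were also looked up in the cold libraries, which took part in the filter and in the estimate of spread behind the calls, and in the hybrid, which did not. In cold worms of the same strain, the HK104 libraries were again at or under 3 counts each at 176 of the 196 genes (89.8%), and the AF16 libraries at 82 of the 109 (75.2%). The other strain exceeded 3 counts in at least 1 cold library at 185 of the 196 and at 107 of the 109. The hybrid table has columns named by strain and treatment, and these were read here, from the names of the table and its columns, as reads of the hybrid assigned to the AF16 or the HK104 allele. On that reading, which all hybrid values below share, 36 of the 196 and 39 of the 109 genes had at least 20 assigned reads. The median share of reads from the allele of the floor strain was 0% in both sets, and it was at most 5% at 27 of 36 genes for HK104 and at 33 of 39 for AF16. It exceeded 30% at 2 and 1 genes. A gene absent from a strain's genome, a silent gene and a gene whose reads from that strain could not be counted cannot be told apart by these values.

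The share of genes called differed with expression level. The tested genes were divided by mean log2(CPM + 0.5) over the 4 control libraries into 10 bins of 1350 or 1351 genes, from bin 1 (lowest) to bin 10 (highest). The share of genes called was 13.5% in bin 1, 14.5% in bin 2, 7.40% in bin 5 and 1.63% in bin 10, beside 7.01% of all genes. In the fit of the 4 control libraries the shares varied less, from 19.1% in bin 2 to 12.4% in bin 9. The steep decline was thus seen in the main fit and not in that of the control libraries. Why the fits differed in this was not tested. The median absolute log2 difference between the strains, over all genes of a bin, was 1.23 in bin 1, 0.30 in bin 5 and 0.14 in bin 10. These are fitted values. On the scale of log2(CPM + 0.5), which compresses differences at low levels, the strain pairings had medians of 0.55 to 0.64 in bin 1 and of 0.15 to 0.19 in bin 10, beside replicate medians of 0.32 (AF16) and 0.27 (HK104) in bin 1 and of 0.12 and 0.07 in bin 10. A difference of at least 2-fold was fitted at 769 genes (56.9%) of bin 1, of which 183 were called, and at 18 genes (1.33%) of bin 10, of which 16 were called.

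The most abundant transcripts were also examined. Of the 100 most abundant genes, with means of at least 1280 CPM, 0 were called by edgeR, 4 had an unadjusted p below 0.05, and DESeq2 called 1. None of the 100 differed by 2-fold, the largest log2 difference being 0.91. The fit of the 4 control libraries called 10 of them and gave 20 with an unadjusted p below 0.05. The most abundant gene called in the main fit was number 145 in order of abundance. Of the 1000 most abundant genes 22 were called, 5 higher in HK104 and 17 higher in AF16, and the fit of the 4 control libraries called 143, beside 2162 of all 13503 genes. The 947 genes of the main fit together took a small part of the RNA. They held 1.97% and 1.98% of the counts in the AF16 libraries and 1.60% and 1.63% in the HK104 libraries. The 2162 genes called with the control libraries include some of the 100 most abundant, and their share of counts was not computed. The genes higher in AF16 supplied 1.63% and 1.67% of AF16 counts, and the genes higher in HK104 supplied 1.09% of HK104 counts in either library.

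**Figure D3:**
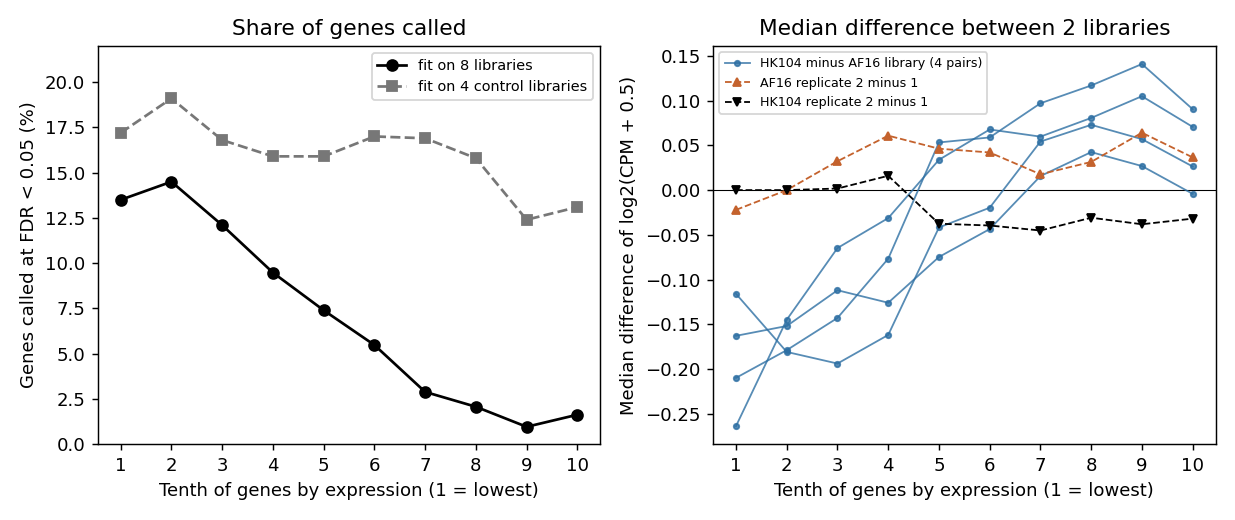
Left, the percentage of genes called in 10 bins of expression, for the fit of all 8 parental libraries (circles) and of the 4 control libraries (squares), falling from 13.5% to 1.63% in the former. Right, the median difference of log2(CPM + 0.5) between 2 libraries per bin, for the 4 pairings of an HK104 with an AF16 library (blue) and for the replicates of each strain (dashed): the strain medians lie below 0 in bins 1 to 4.

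Weakly expressed genes had lower values in HK104 as a group, beyond those called. HK104 had at least 1 count at 16421 and 16207 genes and AF16 at 16998 and 16829, so that the strains did not overlap, although the HK104 libraries held more counts in total. In bins 1 to 4 the median log2 difference between an HK104 and an AF16 library was below 0 in all 4 pairings, from -0.26 to -0.03. In bins 7 to 9 it was above 0 in all 4 pairings, from 0.02 to 0.14. Between replicates the bin medians lay between -0.02 and 0.06 in AF16 and between -0.05 and 0.02 in HK104. Put as shares of genes, 59.0% to 61.1% of the genes of bins 1 to 4 were lower in HK104, against 33.1% to 39.1% in bins 8 to 10. As fitted log2 fold changes, the medians of bins 1 to 4 were -0.38, -0.21, -0.17 and -0.14. Without the genes at the floor in a strain these fitted medians were -0.20, -0.19, -0.17 and -0.14, so bin 1 changed most. In the fit of the cold libraries the medians of bins 1 to 4 were also below 0, from -0.56 to -0.17. Those of bins 5 to 10 lay below 0 as well, from -0.11 to -0.02, so the positive side of the trend was not seen there. The calls in bins 1 to 4 comprised 282 genes higher in HK104 and 389 higher in AF16, and in bins 5 to 10 they comprised 125 and 151. Where the bin medians cross 0 depends on the scaling: with upper-quartile scaling the overall median was -0.03 in place of 0.01. No test was made of the trend, since genes are not replicates. Whether reads of HK104 were counted as fully as those of AF16 was not tested either. In the hybrid control library 2849305 reads were assigned to the AF16 allele and 2485660 to the HK104 allele.

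Individual genes were taken from those well counted in both strains. Of 9915 genes with at least 10 counts in each of the 8 parental libraries, 349 (3.52%) were called, 168 higher in HK104 and 181 higher in AF16, with a median size of 1.53 on the log2 scale. In all 349 the control libraries of the strains did not overlap. The same held for all 947 called genes, and for 60.9% of all tested genes. It was also a condition for naming a gene. The largest difference in each direction, and the next largest, are described. Their large size and separate control libraries thus follow from the choice.

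WBGene00024619 had 2.34 and 1.02 CPM in the AF16 libraries and 138 and 112 CPM in the HK104 libraries. The AF16 level rested on 38 and 17 counts. The fitted log2 fold change was 6.21 ± 0.39 (SE; edgeR FDR = 1.97e-05), and the means were 1.68 ± 0.934 and 125 ± 17.9 CPM (SD, n = 2 each). In cold worms HK104 had 44.4 and 32.9 CPM and AF16 1.71 and 1.32 CPM, still without overlap and with a smaller distance. The change of the strain difference with cold did not pass its own test (log2 change -1.55, edgeR FDR = 0.365).

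WBGene00040740 was almost the same in replicates, with 0.863 and 0.840 CPM in AF16 and 30.8 and 31.2 CPM in HK104. The log2 fold change was 5.17 ± 0.33 (SE; edgeR FDR = 2.10e-05), between means of 0.851 ± 0.0161 and 31.0 ± 0.24 CPM (SD, n = 2 each). The AF16 level stood on 14 counts in each library. Cold worms had 0.57 and 1.09 CPM in AF16 and 28.0 and 27.8 CPM in HK104, again with no overlap between the strains.

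WBGene00024112 showed the opposite pattern, with 78.0 and 68.8 CPM in AF16 and 1.98 and 2.28 CPM in HK104. Its log2 fold change was -5.10 ± 0.41 (SE; edgeR FDR = 7.71e-05), between means of 73.4 ± 6.54 CPM in AF16 and 2.13 ± 0.211 CPM in HK104 (SD, n = 2 each). The cold AF16 libraries differed from each other, at 153 and 77.6 CPM, and the cold HK104 libraries had 3.0 and 1.52 CPM.

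WBGene00027940 had 27.5 and 31.2 CPM in AF16 and 1.57 and 2.39 CPM in HK104. Its log2 fold change was -3.88 ± 0.41 (SE; edgeR FDR = 0.000338), between means of 29.3 ± 2.63 and 1.98 ± 0.582 CPM (SD, n = 2 each). After cold the levels were 18 and 34.2 CPM in AF16 and 1.28 and 2.31 CPM in HK104.

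**Figure D4:**
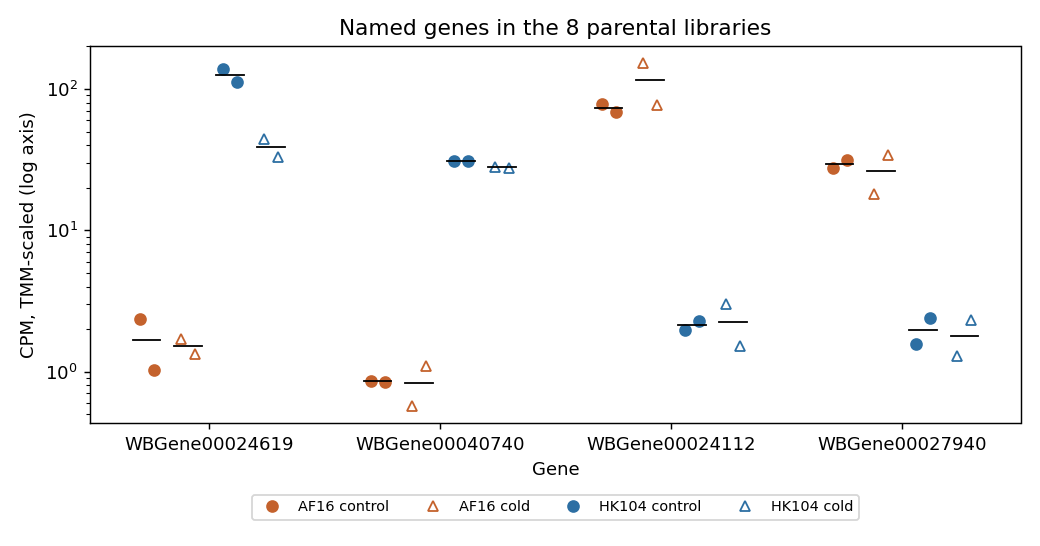
Points are TMM-scaled CPM, on a log axis, of 4 genes in each of the 8 parental libraries (circles for control, triangles for cold, orange for AF16, blue for HK104), and short lines are the means of 2 libraries. By the rule of choice the control points of the strains do not overlap in any of the 4 genes. In WBGene00024619 the higher AF16 control had 2.34 CPM and the lower HK104 control 112 CPM. The cold points, to which the rule did not apply, do not overlap between strains either.

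In the hybrid control library these genes did not all follow the parents. Reads of WBGene00024619 came 10.9% from the AF16 allele (56 against 460 reads; 95% Wilson interval 8.45 to 13.8). For WBGene00040740 the AF16 share was 6.99% (19 against 253 reads; 4.52 to 10.7). For WBGene00024112 it was 96.4% (592 against 22 reads; 94.6 to 97.6). In these 3 genes the allele of the higher strain gave most reads. At WBGene00027940 the alleles were even, with 19 reads each (50%; 34.8 to 65.2), although AF16 exceeded HK104 widely in the parents. The intervals cover counting error only, and a single hybrid library gives no replicate check.

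The allele of the higher strain gave more reads at most of the called genes. Among called genes with at least 20 assigned reads in the hybrid control library, it held for 505 of 561 (90%), against 4988 of 8654 (57.6%) of genes not called. By size, it held for 32 of 37 genes (86.5%) with a log2 difference under 1, for 184 of 219 (84.0%) at 1 to 2, for 119 of 131 (90.8%) at 2 to 3, for 45 of 48 (93.8%) at 3 to 4 and for 125 of 126 (99.2%) at 4 or more. Most genes not called had small differences: 8359 of the 8654 lay under 1, and it held for 4775 of them (57.1%). At 1 to 2 it held for 202 of 281 genes not called (71.9%), beside 84.0% of those called. Among called genes the share was 235 of 269 (87.4%) where HK104 was higher and 270 of 292 (92.5%) where AF16 was higher. In genes not called the median share of AF16 reads was 50.8%. If reads of one strain were counted less fully, parents and hybrid could both show it, and this was not tested. Over the 561 genes the median absolute strain difference was 2.12 on the log2 scale. The median allele difference, taken as positive in the direction of the strain difference, was 1.41. These sizes are not like for like. The strain values come from the fit that called the genes, and the allele ratios have 0.5 added to each read count. Whether the alleles differed less than the strains was not tested.

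The strain differences of untreated worms were then read in the 4 cold libraries, in a separate fit that shares no library with the control fit. Of the 2162 genes called in the 4 control libraries, 2011 (93.0%) had the same direction after cold, against 7353 of the 11341 genes not called (64.8%). By size, the share was 841 of 932 (90.2%) for differences under 1 on the log2 scale and 349 of 353 (98.9%) for those of 4 or more. It was 951 of 1036 (91.8%) for genes higher in HK104 and 1060 of 1126 (94.1%) for genes higher in AF16. In the cold fit the medians of all 10 expression bins lay below 0, towards AF16, and these shares were not adjusted for that. The median size was 1.22 in control worms and 1.06 in the same direction after cold, and across these genes, which share libraries and are not replicates, the differences correlated with r = 0.92. The calls made only with the control libraries were thus mostly found again in direction by libraries outside their fit. The cold libraries had taken part in the filter that set the tested genes. Genes not called had a smaller median size in control worms (0.22), and no class of matched size was compared. A counting difference between the strains could recur in the cold libraries, and this was not tested.

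**Figure D5:**
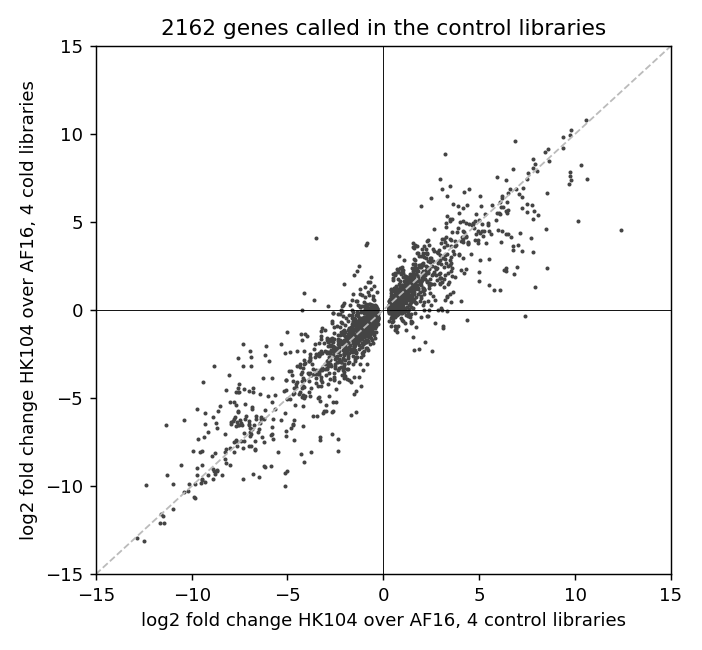
Each point is 1 of the 2162 genes called in the fit of the 4 control libraries, with its log2 fold change of HK104 over AF16 there on the horizontal axis and the same from the 4 cold libraries on the vertical axis. Of these, 2011 lie in the lower left or upper right field (same direction), and the dashed line marks equal values.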

How the data were processed

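RNA-seq of whole worms was deposited by the authors as raw counts per gene for 8 parental libraries, and as hybrid counts in columns read here as alleles. Per the submitters' processing notes, cutadapt, HISAT2 2.2.0, HTSeq 0.11.1 and edgeR were used. The genome build, the use of strand and the rule for assigning reads to alleles are not given in the sources used here, so reads of paralogs or overlapping genes may be split or lost, and how well reads of each strain could be counted is not known. The authors' result tables, on cold responses, were not used. Samples were grouped by title. Per the labels, 3 of the 4 control libraries name one flow cell and lane and the other names none. The labels do not say that replicates were separate cultures, so p-values measure only the spread between these libraries.

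Counts were analysed with edgeR 4.0.16 (R 4.3.3, limma 3.58.1): filterByExpr (minimum count 10), TMM scaling, 1 coefficient per group over the 8 parental libraries, the quasi-likelihood F test with default dispersions, Benjamini-Hochberg adjustment over all tested genes and a threshold of 0.05. SE is the absolute log2 fold change divided by the square root of F. CPM are TMM-scaled. Genes were named by a rule: called, at least 10 counts in each parental library, controls not overlapping, the 2 largest changes per direction. The fits were tested on simulated data. The cold fit gave 1 shared spread for all genes, so only its directions and sizes are used. Alternatives covered libraries, scaling, filters and tests (DESeq2 1.42.0 among them). The comparison, its lists and rules were chosen with earlier results of these data known. Planned lists of gene families and tissue markers need gene names and were not run. No coordinates or sequences are printed, because no table used here pairs the IDs with them.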

Additional observations from a re-analysis of the deposited data

How the results depend on the processing

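All 4 named genes kept direction under all 20 alternatives. Their log2 fold changes were 5.73 to 6.93, 5.13 to 5.20, -5.21 to -5.01 and -4.22 to -3.61 in the order given above. Where no library was left out, FDR was at most 0.00068. These genes were chosen as the largest differences in the same libraries. Their stability is therefore favoured by the choice and does not speak for the other called genes. The count of 947 called genes stayed within 1.5 times under 13 of 20 alternatives. It became 2162 with the 4 control libraries, 2629 with these and a replicate block, and 1546 with the likelihood ratio test. Called genes with at least a 2-fold change numbered 1467 with the 4 control libraries and a replicate block and 1406 with the likelihood ratio test. The cause of these changes was not tested beyond the spreads given above. Leaving out each of the 8 libraries in turn gave 448 to 1230 called genes, 448 to 1033 with at least a 2-fold change, 303 to 512 past the 2-fold test, and medians of all genes of -0.0196 to 0.0474. Each of the 4 omissions of a control library lowered the first 3 counts by over 1.5 times. Upper-quartile scaling gave a median of all genes of -0.0338. The alternatives that left out no single library put 52.1% to 60.6% of called genes higher in AF16, and those of scaling and filters gave 749 to 1086 calls. Over genes with at least 10 CPM, 91.4% of the control calls had the same direction after cold.

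The replicate numbers give no shared animal, batch or day, and the replicate differences of the control groups correlated with r = 0.14 over genes (-0.03 to 0.41 over all pairs of groups), so the numbers were not taken as pairs. With replicate number as a block in the 8-library fit 1221 genes were called, including all 947. At 2 libraries per strain an exact permutation test of a single value cannot reach 0.05, and low counts limit the lowest bins of expression.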
